A study of Mus musculus with 7 samples.

Results

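NF-κB is a family of dimeric transcription factors that wait in the cytoplasm, bound by inhibitors of the IκB family, until a signal such as tumour necrosis factor (TNF), interleukin 1 or a bacterial product reaches the cell. A kinase complex then marks the inhibitor for destruction, the dimer enters the nucleus, and among the first genes it switches on are its own inhibitors, so the response limits itself. In the gut epithelium this pathway is known for its role in colitis, barrier defence and the growth of colitis-driven tumours. The 10 genes described here are 5 NF-κB subunits (Nfkb1, Nfkb2, Rela, Relb, Rel), 3 feedback regulators (Nfkbia, Nfkbiz, Tnfaip3) and 2 genes induced by TNF (Tnfaip2, Icam1). Members were all probe sets that the array's annotation pairs with exactly 1 gene symbol equal to one of these names. That gave 12 probe sets for 9 genes, out of 45141 probe sets and 17097 named genes in all. Nfkb1 was not analysed here.

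The study profiled tumour cells of the mouse colon on 7 Affymetrix arrays, 4 labelled WT and 3 labelled KO for Mex3a, which encodes an RNA-binding protein of intestinal stem and progenitor cells. The design text gives the genotypes Mex3a tom/flox and Tom/+, read here as KO and WT, so that in both groups 1 Mex3a allele carried the Tomato reporter. Both groups also carried Villin CreERT2, a tamoxifen-dependent Cre recombinase driven by an epithelial promoter, and APC fl/+, a single floxed allele of the tumour suppressor. Both received 4 shots of tamoxifen and then dextran sulfate sodium (DSS), an agent that injures the colon lining, at 2% in the drinking water for 5 days. Adenomas were taken 2 months after DSS was withdrawn, and the cells profiled were sorted as Epcam-positive and Tomato-positive. The sort was thus for epithelial cells with an active Mex3a promoter, from tissue treated earlier with DSS. The labels give neither the animals' age nor whether each array is a separate animal, so each p-value reflects only how much these samples scatter, part of which may be technical.

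The labels and the sort could be checked on a few genes. Mex3a stood at 7.41, 7.38, 7.50 and 7.01 in the WT arrays and at 6.18, 6.29 and 6.07 in the KO arrays (log2 level). Epcam, the epithelial surface protein of the sort, averaged 11.94 ± 0.05 (SD, n = 4) over the WT arrays against 11.94 ± 0.06 (SD, n = 3) over the KO arrays. The leukocyte marker Ptprc was at 4.07 ± 0.04 (SD, n = 4) and 4.16 ± 0.09 (SD, n = 3), below the level filter at 5.28, but 14 of the 21 leukocyte markers with a probe set passed that filter, and no values on this scale are 0. The stromal marker Col1a1 was above that filter, at 7.94 ± 0.47 (SD, n = 4) for WT against 7.83 ± 0.53 (SD, n = 3) for KO. It was highest in WT replicate 3 (8.59) and KO replicate 2 (8.44). The mean of the tested stromal markers was also highest there, at 7.60 and 7.64, against 7.02 to 7.14 on the other arrays. The median level of an array lay between 5.96 and 6.00, and the number of arrays limits the precision. In bulk samples, fewer cells of a type and less RNA per cell cannot be told apart.

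Of the NF-κB genes, 0 of the 9 measured passed the test between the genotypes. Of these, 5 had a higher and 4 a lower fitted mean in KO, with a median log2 difference of 0.05. Over all 12822 genes tested, 43.9% had a positive difference and the median was -0.02. The only member below an unadjusted p of 0.05 in the gene-level fit was Icam1, 1 of 9, where 11.4% of all genes tested fell below that level. The calls were made in limma with scan batch in the fit and Benjamini-Hochberg adjustment, and 0 of 12822 genes passed at an adjusted p of 0.05, a share of 0%. Mex3a itself did not pass, at a difference of -1.13 (limma, adjusted p = 0.142), so a missed threshold says little about smaller differences. The intervals of the members reached as far as -0.51 for Nfkbia and 0.61 for Tnfaip3. All 9 measured genes passed the filter on low levels. The largest difference of a member was not in that fit, which keeps 1 probe set a gene. It was on a dimmer probe set of Nfkbiz, described below with the brighter one, which pointed the other way. The plot of levels on each array shows the overlap of the groups for 10 of the 12 probe sets. The other 2 had groups without overlap, as 4.96% of all probe sets did.

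**Figure D1:**
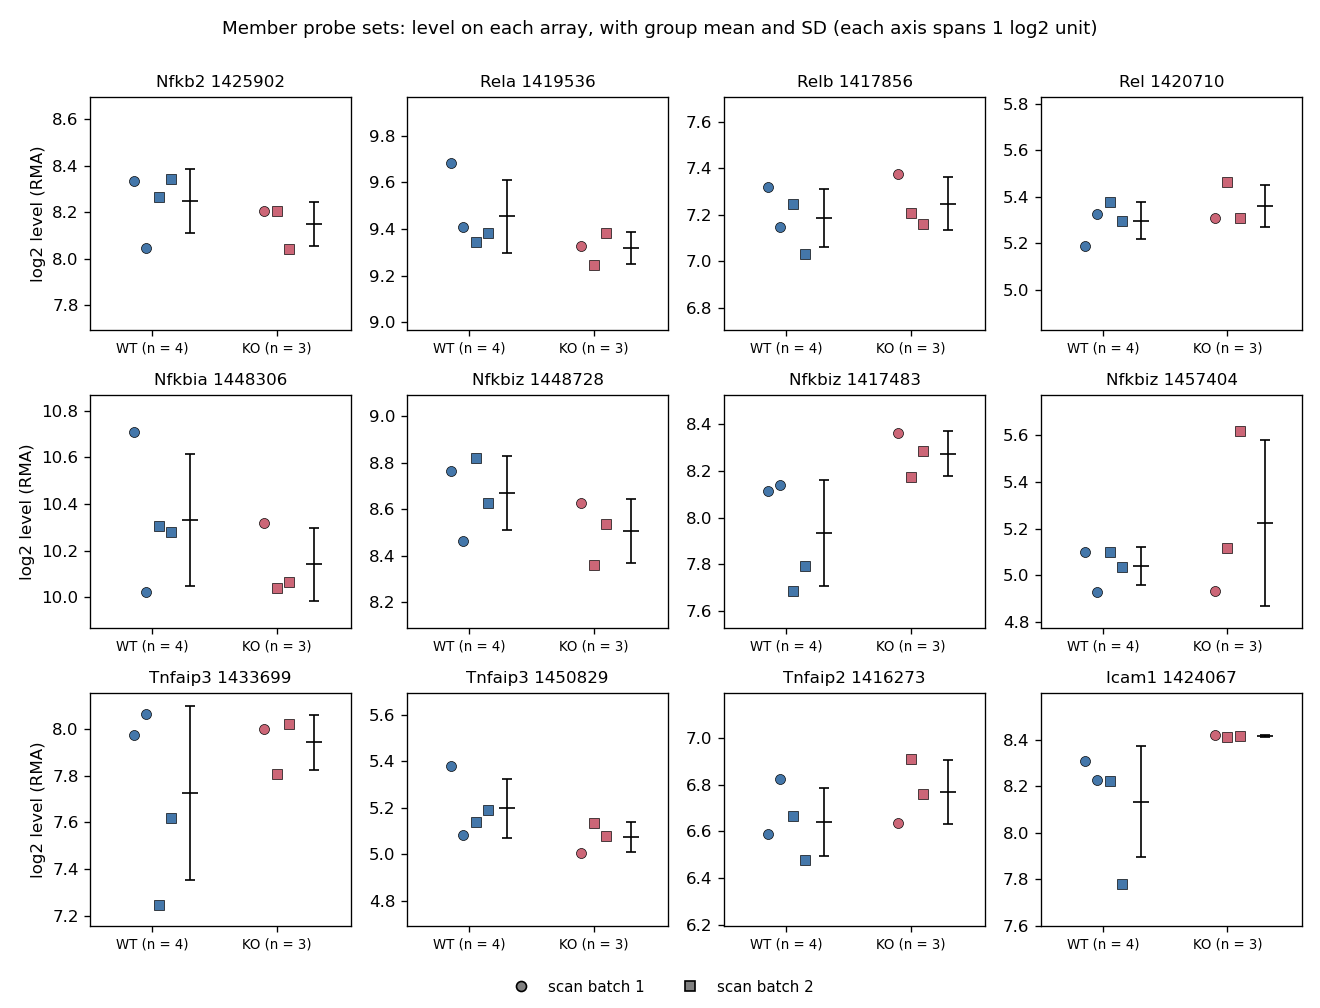
Log2 level (RMA, vertical axes of 1 log2 unit each) of the 12 member probe sets on 4 WT and 3 KO arrays, circles for scan batch 1 and squares for scan batch 2, with the group mean and SD beside the points. Only Nfkbiz 1417483 and Icam1 have all KO arrays above all WT arrays.

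Among the subunits, Rela encodes the main activating partner of the canonical pathway, and it had a log2 level of 9.68, 9.41, 9.34 and 9.38 in WT against 9.33, 9.25 and 9.38 in KO. WT replicate 1 was the highest of the arrays, and KO replicate 3 had exactly the value of WT replicate 4, so the groups overlapped. The fitted difference was -0.12 (SE 0.10), with a 95% confidence interval of -0.34 to 0.11 (limma, adjusted p = 0.632). It shrank to -0.059 without WT replicate 1 and to -0.048 without KO replicate 1. Nfkb2 encodes a precursor that is cut to the active subunit of the alternative pathway, and its WT arrays read 8.34, 8.05, 8.27 and 8.34 against 8.20, 8.20 and 8.04 in KO. WT replicate 2 and KO replicate 3 were the lowest, almost at the same level. The difference was -0.10 (SE 0.11), with an interval of -0.35 to 0.14 (limma, adjusted p = 0.692).

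Relb, the partner of the processed Nfkb2 product in the alternative pathway, stood at 7.32, 7.15, 7.25 and 7.03 in WT against at 7.37, 7.21 and 7.16 in KO. KO replicate 1 was the highest array and WT replicate 4 the lowest, with the others interleaved. Its difference was 0.08 (SE 0.09), with an interval of -0.13 to 0.29 (limma, adjusted p = 0.718). Rel encodes a subunit best known from lymphocytes, and it was the dimmest member of the gene-level fit, at 5.19, 5.33, 5.38 and 5.29 in WT against 5.31, 5.46 and 5.31 in KO. These values lie on both sides of the filter level of 5.28, below which 25% of the genes fall, so they are low among the genes measured. The difference was 0.05 (SE 0.06), with an interval of -0.10 to 0.20 (limma, adjusted p = 0.755). For the 4 subunits measured, every interval thus included 0 and reached no further than 0.35 on the log2 scale in either direction. A missed threshold does not show that the levels are equal.

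The feedback genes are switched on by NF-κB through κB sites, short DNA motifs near their starts, and the upstream sequence of Nfkbia, Tnfaip3 and Nfkb2 is shown because it places such motifs next to the measured genes. Icam1 is shown beside them as the member with separated groups. The sequences are the 250 bases before the annotated start, 5′ to 3′ on the gene's strand, from RefSeq (build GRCm38.p6), and capitals mark matches to the 10-base κB consensus on either strand, overlapping matches merged.
Nfkbia, chr12:55492648-55492897, minus strand: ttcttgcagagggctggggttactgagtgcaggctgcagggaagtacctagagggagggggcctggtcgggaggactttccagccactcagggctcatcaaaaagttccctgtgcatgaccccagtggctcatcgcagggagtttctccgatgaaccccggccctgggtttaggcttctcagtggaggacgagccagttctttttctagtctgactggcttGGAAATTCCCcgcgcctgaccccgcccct
Tnfaip3, chr10:19015411-19015660, minus strand: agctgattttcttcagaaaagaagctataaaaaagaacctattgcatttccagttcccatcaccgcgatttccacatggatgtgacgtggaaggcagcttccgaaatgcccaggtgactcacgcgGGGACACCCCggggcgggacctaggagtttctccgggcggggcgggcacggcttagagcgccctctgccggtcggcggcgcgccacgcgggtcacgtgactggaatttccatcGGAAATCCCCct
Nfkb2, chr19:46304487-46304736, plus strand: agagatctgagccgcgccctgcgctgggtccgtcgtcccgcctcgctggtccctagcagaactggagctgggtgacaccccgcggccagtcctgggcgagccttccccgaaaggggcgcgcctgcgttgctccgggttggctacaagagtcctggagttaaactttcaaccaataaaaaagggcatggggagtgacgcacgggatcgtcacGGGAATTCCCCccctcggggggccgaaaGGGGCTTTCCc
Icam1, chr9:21015690-21015939, plus strand: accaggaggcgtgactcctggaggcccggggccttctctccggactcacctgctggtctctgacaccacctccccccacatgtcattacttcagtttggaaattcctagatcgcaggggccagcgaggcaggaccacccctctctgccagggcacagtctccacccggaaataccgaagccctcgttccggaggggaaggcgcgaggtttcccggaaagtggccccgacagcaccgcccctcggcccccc
In Nfkbia the match GGAAATTCCC begins 29 bases before the start. Tnfaip3 has GGGACACCCC at 125 and GGAAATCCCC at 12 bases before it, and Nfkb2, at the start shown, has GGGAATTCCC at 39 and GGGGCTTTCC at 11. The consensus searched was GGGRNNYYCC, with R for A or G, Y for C or T and N for any base. No exact match was found in the window of Icam1, which says only that these letters are not in these 250 bases. The window does hold tggaaattcc, which departs from the consensus only in its first base. The windows of Nfkbia (aggactttcc) and Tnfaip3 (tggaatttcc) hold such near matches too, and how common they are in all windows was not counted. A missing exact match does not show that Icam1 lacks a κB site. The window of the other annotated start of Tnfaip3 has no match. Promoter windows were found for 7 of the 10 genes, some with several starts, and 7 of their 10 windows had a match (in Nfkb2, Rel, Nfkbia, Tnfaip3 and Tnfaip2), beside 7.25% of all 32851 windows of that length. These genes were chosen as known parts of the pathway, and a match is a description of sequence, not of binding.

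Nfkbia encodes IκBα, the inhibitor that returns NF-κB to the cytoplasm. It read 10.71, 10.02, 10.31 and 10.28 in WT against 10.32, 10.04 and 10.06 in KO (log2 level). WT replicate 1 stood above every other array and WT replicate 2 below every other, so the WT arrays spanned the whole KO range. The difference was -0.16 (SE 0.15), with an interval of -0.51 to 0.18 (limma, adjusted p = 0.657). The interval is the widest of the members in the gene-level fit, and the value moved from -0.06 without WT replicate 1 to -0.29 without WT replicate 2. The 3' control probe set of Gapdh minus its 5' one, a measure of RNA integrity and amplification, lay between -0.21 and -0.12 in WT against between -0.24 and -0.15 in KO. In scan batch 2 the genotypes did not overlap on this measure, at -0.12 in both WT arrays against -0.21 and -0.24 in KO. A fit that holds both can thus hardly tell them apart there. With the measure as a further covariate the difference of Nfkbia was 0.06 (limma, adjusted p = 0.955).

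Nfkbiz encodes IκBζ, a nuclear IκB protein that is strongly induced by interleukin 1, interleukin 17 and bacterial products and helps switch on a secondary set of NF-κB genes. Its 3 probe sets did not read alike. The brightest, 1448728, stood at 8.76, 8.46, 8.82 and 8.63 in WT against at 8.63, 8.36 and 8.53 in KO. The groups overlapped, and the difference was -0.16 (SE 0.12), with an interval of -0.44 to 0.12 (limma, adjusted p = 0.595). The second probe set, 1417483, gave 8.11, 8.14, 7.69 and 7.79 in WT against 8.36, 8.17 and 8.28 in KO. Here all 3 KO arrays lay above all 4 WT arrays, by the narrow margin between KO replicate 2 and WT replicate 2, while both WT arrays of scan batch 2 lay far lower. Among all 45037 probe sets without controls, 2.16% had the 3 KO arrays on top.

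In the fit over all probe sets the difference on 1417483 was 0.39 (SE 0.09), a 1.31-fold higher level in KO, with an interval of 0.18 to 0.60. The unadjusted p was 0.003, but the adjusted p was 0.458 (limma), and 0 of 45037 probe sets passed, a share of 0%. At an unadjusted p under 0.05 there were 2 of the 12 member probe sets, this one and Icam1, against 9.39% of all probe sets. An exact permutation test, two-sided, gave a p of 0.114, and 0.167 with arrays exchanged only within scan batch. Of the 35 splits of the arrays the smallest possible p is 0.0286, and of the 18 arrangements within scan batch 0.0556. Within scan batch 1 the difference was 0.24 and within scan batch 2 it was 0.49. With 1 array left out it ranged from 0.34 to 0.49. As the groups did not overlap, leaving out an array could not turn its sign.

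The third Nfkbiz probe set, 1457404, was dim, at 5.10, 4.93, 5.10 and 5.03 in WT against 4.93, 5.12 and 5.62 in KO. Only KO replicate 3 stood apart there, and without it the difference of 0.15 (SE 0.13) became -0.014. The gap between the pair of brighter probe sets was also compared, a choice made after their values were seen. Probe set 1448728 exceeded 1417483 by 0.65, 0.32, 1.13 and 0.84 in WT against by only 0.26, 0.19 and 0.25 in KO (log2 difference within an array). All KO gaps were smaller than all WT gaps, with means of 0.74 ± 0.34 (SD, n = 4) and 0.23 ± 0.04 (SD, n = 3), a two-sided exact permutation p of 0.0571 and of 0.111 within scan batch. Over the 7180 genes with several probe sets, 8.59% had such gaps without overlap. Both probe sets carry the same accession in the annotation, and which part of the transcript each one reads was not part of the annotation used here. The gap restates the opposite signs of the pair and is no separate evidence. Since the sign depends on the probe set, Nfkbiz is reported with no single direction.

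Tnfaip3 encodes a ubiquitin-editing enzyme that shuts down signalling from the TNF receptor, and it protects the gut epithelium from inflammatory death. Its brighter probe set, 1433699, stood at 7.98, 8.06, 7.25 and 7.62 in WT against at 8.00, 7.81 and 8.02 in KO. The WT arrays of scan batch 2 were the 2 lowest of all, and the WT arrays of scan batch 1 were level with KO. The difference was 0.28 (SE 0.14), with an interval of -0.05 to 0.61 (limma, adjusted p = 0.472). It was -0.020 within scan batch 1 and 0.48 within scan batch 2, and it fell to 0.14 without WT replicate 3. With a weight fitted to each array the difference was 0.48 and passed (limma, adjusted p = 0.0457), a setting under which 1370 of all genes passed, while over all alternatives the adjusted p ranged from 0.0457 to 0.998.

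The other Tnfaip3 probe set, 1450829, was dim, at 5.38, 5.08, 5.14 and 5.19 in WT against 5.01, 5.14 and 5.08 in KO. It pointed the other way, by -0.12 (SE 0.08; limma over all probe sets, adjusted p = 0.641), with overlapping groups. Differences of both signs among the probe sets of a gene were common: of the 7180 genes with several probe sets, 50.3% had them. Both members with several probe sets, Nfkbiz and Tnfaip3, were among these.

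Icam1 encodes an adhesion molecule through which neutrophils and lymphocytes hold on to epithelium and endothelium, and it is a standard readout of TNF and NF-κB activity. Its log2 level was 8.31, 8.23, 8.22 and 7.78 in WT against 8.42, 8.41 and 8.42 in KO. The 3 KO arrays were almost equal and lay just above the highest WT array, and WT replicate 4 was far below the rest. WT averaged 8.13 ± 0.24 (SD, n = 4) against 8.42 ± 0.004 (SD, n = 3) for KO, and all KO arrays were above all WT arrays, as for 2.68% of the genes tested. The fitted difference was 0.31 (SE 0.13), a 1.24-fold higher level, with an interval of 0.02 to 0.60 and an unadjusted p of 0.0390. It did not pass over all genes (limma, adjusted p = 0.428), and the exact permutation test gave a two-sided p of 0.0571, or 0.111 within scan batch.

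The size of the Icam1 difference rested in part on 1 array. Without WT replicate 4 it was 0.17, and it was 0.15 within scan batch 1, which does not hold that array, and 0.41 within scan batch 2. It kept its sign in all 20 alternatives. With all KO arrays above all WT arrays, leaving arrays out could not turn that sign, and some settings cannot change the value at all. Since endothelium and leukocytes also express Icam1, their markers were read beside it. The mean of 8 tested endothelial markers lay between 6.16 and 6.20 in WT against between 6.06 and 6.10 in KO, the opposite order. Of these markers 2 had a positive and 6 a negative difference, with a median of -0.02, as over all genes tested. Only 1 of the 8 was lower at an unadjusted p under 0.05 (limma), beside 4.26% of all genes. Pecam1, an endothelial surface protein, averaged 6.21 ± 0.05 (SD, n = 4) in WT against 6.26 ± 0.11 (SD, n = 3) in KO. The mean of 14 tested leukocyte markers lay between 6.70 and 6.89 in WT against between 6.79 and 6.88 in KO. Their part in the result was not tested.

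Tnfaip2 encodes a TNF-induced protein that takes part in membrane protrusions, and it stood at 6.59, 6.82, 6.67 and 6.48 in WT against at 6.64, 6.91 and 6.76 in KO. The arrays interleaved, with KO replicate 2 highest and WT replicate 4 lowest. The difference was 0.13 (SE 0.11), with an interval of -0.12 to 0.38 (limma, adjusted p = 0.637), and it was -0.07 within scan batch 1 and 0.26 within scan batch 2. The plot of fitted differences sets the members beside the rest of the pathway.

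**Figure D2:**
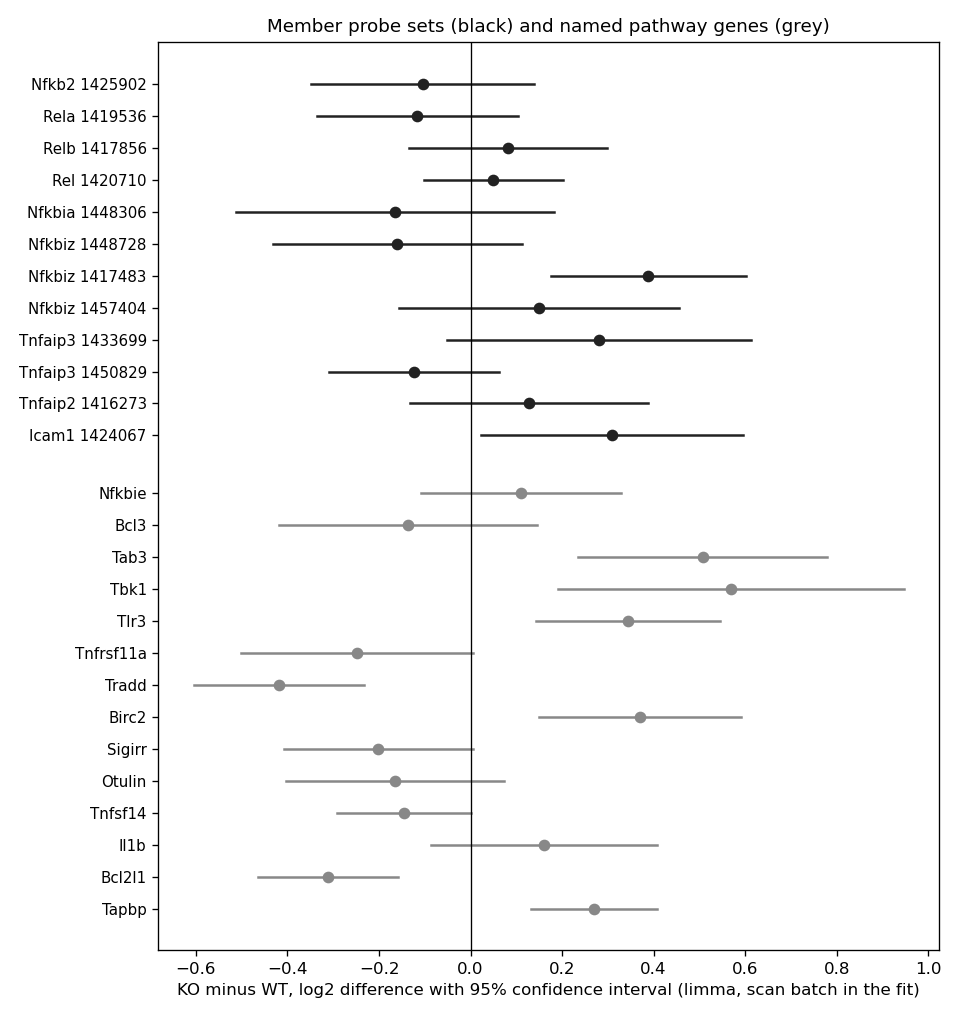
Fitted KO minus WT log2 difference (horizontal axis) with its 95% confidence interval for the 12 member probe sets (black, fit over all probe sets) and 14 named genes of the pathway (grey, gene-level fit). Only Nfkbiz 1417483 and Icam1 have intervals above 0 among the members, and no gene passed the adjusted threshold.

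The arrays did not order the members in one way. WT replicate 1 was the highest array for 3 of the 12 probe sets, Rela, Nfkbia and Tnfaip3 1450829, and the lowest for Rel. WT replicate 4 was the lowest for Relb, Tnfaip2 and Icam1 and the highest for Nfkb2. KO replicate 1 was the highest for Relb, Icam1 and Nfkbiz 1417483 and the lowest for Tnfaip3 1450829. The span between the highest and lowest array ran from 0.27 for Rel to 0.82 for Tnfaip3 1433699. No single array was therefore high or low for the whole group of genes.

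The genes whose levels followed Nfkbia most closely over the 7 arrays were Dpp7, a lysosomal peptidase (Pearson r = 0.982, Spearman rho = 1.00), Mtpap, a mitochondrial poly(A) polymerase (r = 0.981, rho = 0.786), and Tubb4a, a beta-tubulin (r = 0.978, rho = 0.893). Without the 2 arrays farthest from the median of Nfkbia, WT replicates 1 and 2, r was 0.915, 0.926 and 0.923. For Icam1 they were Glce, an enzyme of heparan sulfate synthesis (r = 0.993, rho = 0.929), Slc16a1, a lactate transporter (r = 0.974, rho = 0.893), and Cyp39a1, a sterol hydroxylase (r = 0.971, rho = 0.883). Without WT replicate 4 and KO replicate 1, r was 0.956, 0.946 and 0.812. These genes were picked for their high correlation, so no p is given. Of the 12822 genes tested, 163 exceeded an r of 0.9 with Nfkbia and 108 with Icam1, and 7 arrays are few for a correlation.

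Around the members, 129 further genes of the pathway were listed by role. Of the 95 that were tested, 0 passed, 48 had a positive and 47 a negative difference, and the median was 0.003. At an unadjusted p under 0.05, 11 were higher and 4 lower in KO, where 7.14% of all genes tested were higher and 4.26% lower. All KO arrays lay above all WT arrays for 6 of the 95 and below for 2, where 2.68% and 3.23% of all genes did. With a weight fitted to each array, 7 of the 14 genes named below passed (Tab3, Tbk1, Tlr3, Tradd, Birc2, Bcl2l1 and Tapbp; limma, adjusted p from 0.0269 to 0.0355), with the signs given here. Under that setting 1370 of all 12822 genes passed. The 14 were picked as the 2 of smallest p in each list, so their count is no separate evidence.

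Among the ligands, 6 of 12 were tested and 0 passed, with 2 positive differences and a median of -0.04. Il1b, the gene of interleukin 1 beta, read 6.95, 7.22, 7.27 and 7.19 in WT against 7.10, 7.39 and 7.59 in KO, a difference of 0.16 (SE 0.11; limma, adjusted p = 0.560). Tnfsf14, a TNF-family ligand, read 6.00, 5.97, 6.07 and 6.01 in WT against 5.81, 5.99 and 5.85 in KO, a difference of -0.15 (SE 0.06; limma, adjusted p = 0.437). For both, 1 KO array lay within the WT range. With 1 array left out, Il1b ranged from 0.086 without KO replicate 3 to 0.26 without KO replicate 1. Among the receptors, 15 of 18 were tested, 5 had a positive difference, the median was -0.04 and 0 passed.

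Tlr3, the endosomal receptor of double-stranded RNA, had a log2 level of 8.71, 8.51, 8.53 and 8.48 in WT against 9.00, 8.82 and 8.81 in KO, so that the KO arrays were the 3 highest. The difference was 0.34 (SE 0.09; limma, adjusted p = 0.388), but 0.19 with the mean of its probe sets, of which the dimmer, near the bottom of the scale, differed by 0.046. Tnfrsf11a, the receptor RANK, read 7.19, 7.30, 7.38 and 7.17 in WT against 6.81, 7.26 and 7.04 in KO. Its difference was -0.25 (SE 0.11; limma, adjusted p = 0.438), and without KO replicate 1 it was -0.12. Its dimmer probe set differed by -0.010.

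Of the adaptors and ubiquitin ligases that sit below the receptors, 16 of 22 were tested, differences were positive for 9 and 0 passed, at a median of 0.03. Tradd, the adaptor that binds the TNF receptor, had 9.01, 8.88, 9.24 and 9.20 in WT against 8.56, 8.82 and 8.74 in KO, all KO arrays lower. The difference was -0.42 (SE 0.08; limma, adjusted p = 0.329), and its dimmer probe set differed by -0.15. Birc2, a ubiquitin ligase that holds the alternative pathway in check, had 6.63, 6.57, 6.22 and 6.20 in WT against 6.73, 6.74 and 6.75 in KO. Those KO arrays were all higher, by little in scan batch 1, and the difference was 0.37 (SE 0.10; limma, adjusted p = 0.388).

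The kinases that act on the IκB proteins and upstream of them had the highest share of low unadjusted p-values among the lists outside the members. Of 11 listed kinases and kinase partners, 10 were tested and 7 were positive, at a median difference of 0.15, and 4 were higher at an unadjusted p under 0.05 and 0 lower, beside 7.14% and 4.26% of all genes. Of these 0 passed over all genes. The lists are small and were chosen with earlier results of these data known, so their ranking is no separate evidence. Tab3, a partner of the kinase that activates the IκB kinase complex, read 6.92, 7.03, 6.64 and 6.50 in WT against 7.19, 7.19 and 7.36 in KO. Its difference was 0.51 (SE 0.12; limma, adjusted p = 0.366), with all KO arrays above all WT arrays. The Tab3 difference was 0.22 within scan batch 1 and 0.70 within scan batch 2. Tbk1, a kinase related to the IκB kinases that acts in antiviral signalling, read 6.64, 6.48, 5.68 and 6.41 in WT against 6.99, 6.71 and 6.70 in KO. It also had separated groups and a difference of 0.57 (SE 0.16; limma, adjusted p = 0.388), which was 0.36 without WT replicate 3, the lowest array, and its other probe set differed by 0.09.

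Of the IκB family outside the members, 3 of 4 were tested, 1 difference was positive and 0 passed, at a median of -0.07. Nfkbie, another cytoplasmic IκB, differed by 0.11 (SE 0.09; limma, adjusted p = 0.640). Its dimmer probe set read 6.28, 6.05, 5.82 and 5.75 in WT against 6.77, 6.12 and 5.91 in KO, a larger difference of 0.38 (SE 0.11; limma over all probe sets, adjusted p = 0.486) with overlapping groups. Bcl3, a nuclear IκB protein, differed by -0.14 (SE 0.12; limma, adjusted p = 0.649). Of the deubiquitinases and other negative regulators, 14 of 16 were tested, differences were positive for 9 and 0 passed, at a median of 0.06. Sigirr, which dampens interleukin 1 and Toll-like receptor signals, differed by -0.20 (SE 0.09; limma, adjusted p = 0.438), and Otulin, which removes linear ubiquitin chains, by -0.17 (SE 0.10; limma, adjusted p = 0.544). In both the groups overlapped, and Otulin was at -0.31 without KO replicate 1 and at -0.10 without WT replicate 4.

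Target genes outside the members moved in both directions. Of 46 listed, 31 were tested, 15 had a positive and 16 a negative difference, the median was -0.001, and 0 passed. At an unadjusted p under 0.05 there were 5 higher and 2 lower, beside 7.14% and 4.26% of all genes. Bcl2l1, which protects cells from apoptosis, read 10.35, 10.41, 10.77 and 10.66 in WT against 10.14, 10.40 and 10.31 in KO, a difference of -0.31 (SE 0.07; limma, adjusted p = 0.329). WT replicate 1 lay within the KO range, and of its 4 probe sets 1 had a difference of 0.01. Tapbp, which loads peptides onto MHC class I, read 10.92, 10.82, 10.66 and 10.71 in WT against 11.21, 10.86 and 10.96 in KO, a difference of 0.27 (SE 0.06; limma, adjusted p = 0.340), while its dimmer probe set differed by -0.10. The known targets thus had no common direction in these arrays, as was the case for the members. The plot of member differences under each setting shows how far each one depended on single arrays, scan batches and other choices.

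**Figure D3:**
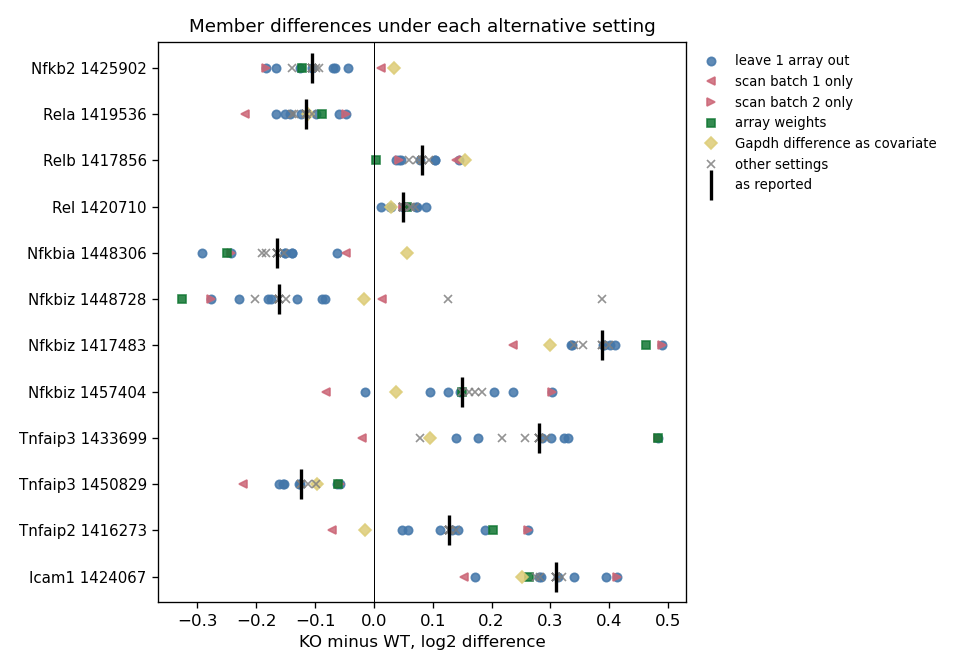
KO minus WT log2 difference of each member (horizontal axis) as reported (black bar) and under the alternative settings, with leave-one-out values as circles, single scan batches as triangles and other settings as marked. The points of Rela, Relb, Rel, Nfkbiz 1417483, Tnfaip3 1450829 and Icam1 stay on one side of 0, and those of the other members cross it. The points of Nfkbiz 1448728 and Tnfaip3 1433699 include the settings that take the mean of all probe sets or the one of largest variance.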

How the data were processed

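Gene expression was measured in 7 arrays, 4 WT (2 in each scan batch) and 3 KO (1 in scan batch 1, 2 in scan batch 2). Per the labels' protocols, the starting material was 2000 sorted cells, with 24 amplification cycles and 8 µg of labelled cDNA. The deposited table holds a log2 level for each probe set, which the authors made with RMA (background correction, normalization between arrays and summary of probes), per the submitters' processing notes. Neither its version nor a filter or correction for batch is given in the sources used here. In 19995 probe sets at least 2 arrays carry the same value, which can make a group's spread look small.

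Of 45141 probe sets, 104 were controls and 28898 had 1 gene symbol in the platform annotation, 551 several and 15588 none. Each of 17097 genes was represented by its brightest probe set on average, and 12822 genes remained after dropping the lowest 25% by mean level. The genotypes were compared in limma 3.58.1 (R 4.3.3), with lmFit, eBayes with a trend, scan batch as a covariate, 4 residual degrees of freedom and Benjamini-Hochberg adjustment at 0.05. A second fit covered all 45037 probe sets that were not controls, with no filter. Intervals are 95% confidence intervals from these fits. Single values were compared by exact permutation. Named pathway genes are the 2 of smallest p in each list, with all members. The members and lists were chosen with earlier results of these data known. Arrays are named in accession order within a group, and such numbers pair no samples.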

Additional observations from a re-analysis of the deposited data

Results flagged for a closer look

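Of 31 results examined in the 4 WT arrays, 2 had an array far from the other 3, and chance flags about 1 in 20. For Icam1, WT replicate 4 stood at 7.78, below the others by 0.840 of the whole WT range. For the endothelial marker Pecam1, WT replicate 1 stood at 6.14 and the other WT arrays shared 1 value, 6.23, so the gap was the whole range.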

How the results depend on the processing

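The number of members with a positive difference (5 of 9) stayed between 4 and 6 over 20 alternatives, and their median between -0.01 and 0.09. With scan batch 1 only, the difference turned for Nfkb2 (0.013), Nfkbiz (0.014, brightest probe set), Tnfaip3 (-0.020), Tnfaip2 (-0.072), Bcl3 (0.0034), Otulin (0.050) and Nfkbiz 1457404 (-0.081). That batch holds 1 KO array, whose spread is taken to be that of the WT arrays. With the Gapdh difference as covariate it turned for Nfkb2 (0.035), Nfkbia (0.056), Tnfaip2 (-0.014) and Bcl3 (0.0079). In scan batch 2 that covariate did not overlap between the genotypes, so the fit can hardly tell it from genotype there. Nfkbiz turned to 0.13 with the mean of all its probe sets and to 0.39 with the probe set of largest variance, as the choice of probe set decides it. With 1 array left out, Nfkbiz 1457404 ranged from -0.014 (without KO replicate 3) to 0.30. For all other changes of sign the cause was not tested.

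The number of genes past the threshold was 0, 0 to 2 with 1 array left out, and 1370 with array weights, of which 977 were higher in KO. At an unadjusted p under 0.05 it was 1462 genes. Under the array weights Tnfaip3 was the 1 member that passed, with 7 of the 14 named pathway genes, which had been picked for small p-values. No paired analysis was possible because the numbers in the array titles are all different and pair no arrays. The values carry no detection calls, so how far the dim probe sets stand above background is unknown.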
